A study of Mus musculus with 9 samples.

Results

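Cd300a, Cd300lb, Cd300ld, Cd300lf, Sirpa, Clec12a, Pilra, Lair1 and Cd200r1 encode cell-surface receptors of myeloid cells that mostly restrain activation, and their transcripts were followed in mouse bone marrow-derived macrophages (BMDMs) exposed to tenascin C (TNC). The genes were chosen by name after their measured signals in these arrays were known, and every probe set that the platform table gave to 1 of these symbols alone was taken. Of the 9 genes, 8 had such a probe set, 14 probe sets in all, out of 18193 genes measured. No probe set was named to Clec12a alone, so it has no value here. The probe set of highest mean signal, called the brightest, stands for its gene, and the others are given beside it.

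BMDMs were grown for 7 days in M-CSF from marrow of BALB/c mice aged 8 to 10 weeks, and all were kept overnight in 1% serum with M-CSF. Total RNA was measured on 9 Affymetrix arrays in 3 groups of 3. Untreated cells carry no treatment in their labels. TNC + vehicle cells were kept in 0.1% DMSO for 1 h before recombinant TNC, a matrix glycoprotein, was added at 2 µg/ml for 6 h. TNC + TLR4i cells received 3 µM TAK-242, a small molecule that blocks signaling of Toll-like receptor 4 (TLR4), for 1 h before the same TNC. No arrays of vehicle alone or of inhibitor alone were analyzed here, so TNC and vehicle cannot be told apart in the first comparison, nor TNC and inhibitor in the third. The labels call the samples of a group biological replicates without saying that they came from separate mice, so the errors measure the spread between these samples.

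Signals are log2 values after robust multiarray averaging (RMA), on which a difference of 1 is a doubling. Array medians lay between 6.72 and 6.74, which the normalization makes nearly equal, and the number of arrays limits the precision. The 9 measured macrophage markers were all at 8 or above in untreated cells, and their mean lay between 12.03 and 12.22 in every array. Single markers moved within this mean. With TNC + vehicle against untreated, Fcgr1 differed by 0.94 and Cx3cr1 by -1.24 on the log2 scale, and the others by -0.25 to 0.47. Of the markers of T cells, B cells, NK cells, mast cells, dendritic cells and endothelial cells, 0 reached 8 in untreated cells, against 2 of 8 neutrophil markers and 5 of 6 fibroblast markers. The mean of the 8 endothelial markers was 7.53 in TNC + vehicle replicate 1 and 6.43 to 6.57 in all untreated and TNC + TLR4i arrays, with 6.84 in the lowest TNC + vehicle array. Because this array stood apart, the members' differences, the counts of related genes and the differences of those called are also given without it. In bulk RNA, fewer cells of a type and less RNA per cell cannot be told apart.

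Inhibitory receptors of this kind usually carry an immunoreceptor tyrosine-based inhibitory motif (ITIM) in the cytoplasmic tail. When Src family kinases phosphorylate the ITIM, it recruits the phosphatases SHP-1, SHP-2 or SHIP-1, which dampen signals from activating receptors. Activating relatives lack the motif and instead pair with adaptors such as DAP12 or the Fc receptor γ chain, whose motifs (ITAMs) recruit the kinase Syk, and many inhibitory receptors have such an activating partner encoded beside them. The CD300 family holds both kinds and binds membrane lipids, including those exposed by dying cells.

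The promoters of the members are shown because the Cd300 genes lie side by side on chromosome 11 and moved to different degrees, and because Pilra moved the opposite way. RefSeq promoters of the assembly GRCm38.p6 were found for 7 of the 9 genes, and the 250 bases before each start were searched on both strands. The sequences below run 5′ to 3′ on the gene's own strand and end at the base before the start. They lie at chr11:114889791-114890040 on the plus strand for Cd300a, and on the minus strand at chr11:114934372-114934621 for Cd300lb, chr11:114989887-114990136 for Cd300ld, chr11:115133993-115134242 for Cd300lf and chr5:137836279-137836528 for Pilra. Capitals mark matches to the PU.1 motif (GAGGAAG), the interferon-stimulated response element (ISRE, GAAANNGAA) or the TATA box (TATAAA), written as their reverse complement where the match is on the other strand.
Cd300a: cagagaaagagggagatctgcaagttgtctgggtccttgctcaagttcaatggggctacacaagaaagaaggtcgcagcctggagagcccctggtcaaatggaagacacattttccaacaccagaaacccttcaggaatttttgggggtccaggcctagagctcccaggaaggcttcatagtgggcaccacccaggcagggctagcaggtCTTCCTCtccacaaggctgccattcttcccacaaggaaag
Cd300lb: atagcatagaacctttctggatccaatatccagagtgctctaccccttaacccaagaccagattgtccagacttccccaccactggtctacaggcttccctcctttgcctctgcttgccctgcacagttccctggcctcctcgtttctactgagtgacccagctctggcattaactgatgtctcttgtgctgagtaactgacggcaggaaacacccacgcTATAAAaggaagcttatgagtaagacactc
Cd300ld: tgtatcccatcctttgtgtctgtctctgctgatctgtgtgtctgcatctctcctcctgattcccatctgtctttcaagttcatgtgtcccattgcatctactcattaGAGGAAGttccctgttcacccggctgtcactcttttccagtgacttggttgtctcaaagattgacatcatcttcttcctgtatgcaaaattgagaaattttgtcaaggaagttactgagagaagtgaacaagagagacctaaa
Cd300lf: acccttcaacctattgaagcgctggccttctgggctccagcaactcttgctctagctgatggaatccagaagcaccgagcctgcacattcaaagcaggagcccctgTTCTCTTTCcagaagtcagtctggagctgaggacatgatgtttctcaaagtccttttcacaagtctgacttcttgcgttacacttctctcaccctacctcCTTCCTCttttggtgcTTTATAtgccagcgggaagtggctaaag
Pilra: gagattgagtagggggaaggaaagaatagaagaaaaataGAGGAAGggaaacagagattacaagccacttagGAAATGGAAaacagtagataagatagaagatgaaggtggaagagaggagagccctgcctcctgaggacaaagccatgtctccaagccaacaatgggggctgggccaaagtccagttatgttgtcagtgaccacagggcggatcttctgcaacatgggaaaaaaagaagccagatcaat

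The PU.1 motif, named for the macrophage lineage factor that binds it, occurred in 6 of the 7 promoters and in 10.6% of 32851 RefSeq promoters. It began 40 bases before the start of Cd300a, 44 before Cd300lf, 143 before Cd300ld and 211 before Pilra, and also lay in the promoters of Lair1 and Clec12a. These letters were not found in the window of Cd300lb, which held a TATA box 30 bases before its start. Cd300lf held the TATA letters only on the strand opposite to the gene, at 28 bases before its start. It also held an ISRE at 144 on that opposite strand, and Pilra held an ISRE at 178 on its own strand. On either strand, TATA letters were found in 12.4% of all promoters and ISREs in 7.13%. The AP-1 motif (TGANTCA), present in 6.75% of promoters, was found in the window of Clec12a alone among the 7. No matches of different motifs overlapped. These are matches of letters and no measurement of binding.

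The first comparison asked what TNC with vehicle did to these transcripts. Cd300a, Cd300lb, Cd300ld and Cd200r1, and Sirpa by a small margin, were lower in every TNC + vehicle array than in any untreated array, and Pilra and Lair1 were higher in every one. The differences ran from 3.41-fold lower for Cd300a to 3.31-fold higher for Pilra. Since the members were chosen with such values in view, their differences are a description with no test.

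Cd300a encodes an ITIM-bearing receptor for the phospholipids of dying cells. Its log2 signal was 11.18, 11.19 and 11.26 in the untreated arrays, 9.43, 9.37 and 9.52 with TNC + vehicle, and 11.53, 11.58 and 11.50 with TNC + TLR4i. The TNC + vehicle arrays were far below both other groups, and the TNC + TLR4i arrays were slightly above the untreated arrays, with no overlap between any of the groups. The TNC + vehicle mean was lower than the untreated mean by a log2 difference of -1.77 ± 0.07 (SE, n = 3 per group), the 16th lowest of all 18193 genes. The second Cd300a probe set was dim and differed less, with a log2 difference of -0.38 ± 0.07 and signals of 7.48 to 7.52 in untreated and 7.02 to 7.24 in TNC + vehicle arrays, which did not overlap. RMA compresses differences of dim probe sets, and how far this accounts for the gap was not tested.

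Cd300lb encodes an activating member of the family that couples to DAP12. It read 12.18, 12.26 and 12.19 in untreated, 11.41, 11.17 and 11.33 in TNC + vehicle and 12.37, 12.47 and 12.44 in TNC + TLR4i arrays. As for Cd300a, the 3 groups did not overlap and TNC + TLR4i arrays were the highest. The log2 difference of TNC + vehicle from untreated was -0.91 ± 0.08, or 1.88-fold lower.

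Cd300ld, another activating member, read 9.21, 9.08 and 9.09 in untreated, 8.62, 8.79 and 8.55 in TNC + vehicle and 9.06, 9.08 and 8.97 in TNC + TLR4i arrays. The TNC + vehicle arrays were again the lowest, with a log2 difference of -0.47 ± 0.08 from untreated, below 1.5-fold. Cd300lf, an inhibitory receptor also known as an entry receptor of murine norovirus, was dim. Its signals were 6.79, 7.03 and 7.00 in untreated, 6.94, 6.77 and 6.83 in TNC + vehicle and 7.04, 6.76 and 6.89 in TNC + TLR4i arrays. All 3 groups of Cd300lf overlapped, and the log2 difference between TNC + vehicle and untreated was -0.10 ± 0.08.

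**Figure D1:**
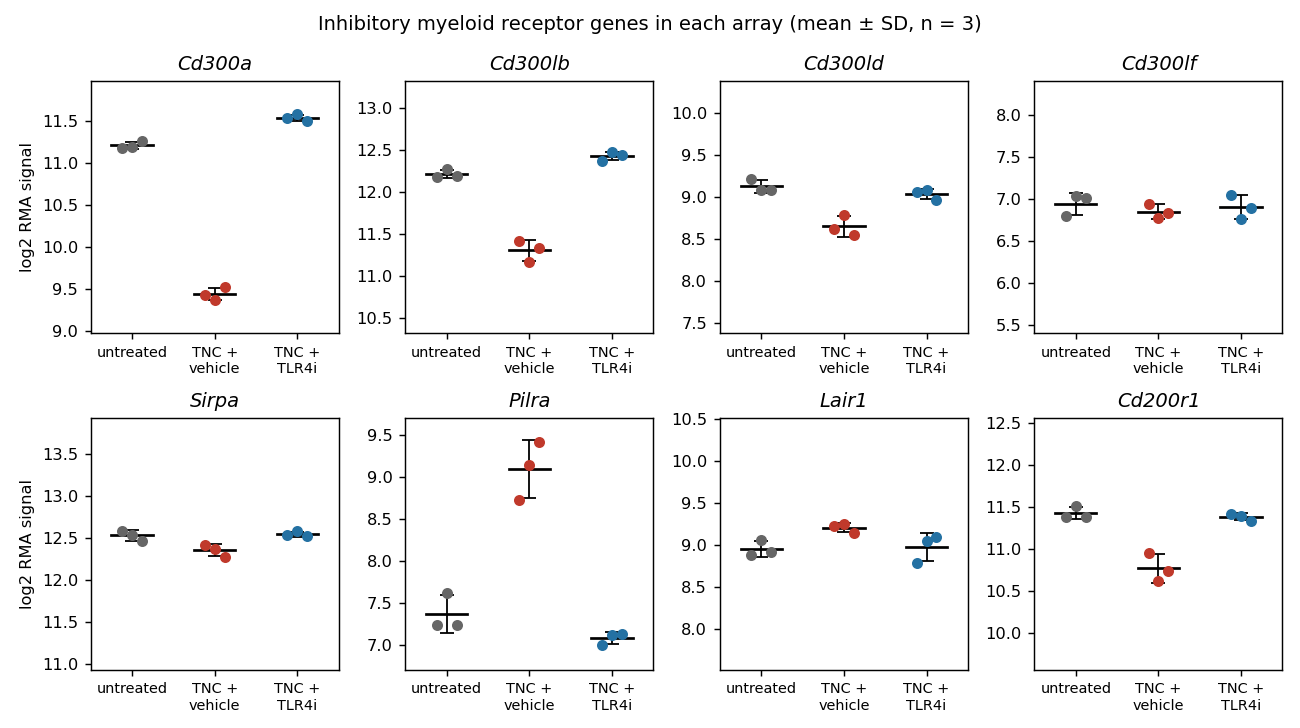
Log2 RMA signal of the 8 measured receptor genes in each of the 9 arrays, with points for arrays, horizontal lines for group means and error bars for SD (n = 3). Each panel spans 3 log2 units but not the same values; Cd300a has means of 11.21 in untreated, 9.44 in TNC + vehicle and 11.54 in TNC + TLR4i arrays, and Pilra has 7.36, 9.09 and 7.08.

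Cd200r1 encodes the receptor for CD200, which restrains myeloid cells through the adaptor Dok2 in place of an ITIM. Its signal was 11.39, 11.51 and 11.39 in untreated, 10.96, 10.62 and 10.74 in TNC + vehicle and 11.43, 11.40 and 11.34 in TNC + TLR4i arrays. The TNC + vehicle arrays were lower than all others, and the other groups overlapped. The log2 difference of TNC + vehicle from untreated was -0.66 ± 0.09. Without TNC + vehicle replicate 2 it was -0.58, just under 1.5-fold, and without replicate 1 it was -0.75. A dimmer second probe set for Cd200r1 had a log2 difference of -0.37 ± 0.11.

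Sirpa encodes the receptor for the "don't eat me" signal CD47. Its brightest probe set was 12.59, 12.54 and 12.47 in untreated, 12.42, 12.38 and 12.28 in TNC + vehicle and 12.54, 12.58 and 12.53 in TNC + TLR4i arrays. The TNC + vehicle arrays lay just below the others, with a log2 difference of -0.17 ± 0.07 from untreated. The other probe sets of Sirpa differed by -0.04 and 0.04 and did not show this, so Sirpa has no agreed direction across its probe sets.

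Pilra encodes an ITIM receptor for sialylated O-glycoproteins whose activating partner is PILRβ. Its signal was 7.24, 7.62 and 7.24 in untreated, 8.72, 9.14 and 9.41 in TNC + vehicle and 6.99, 7.12 and 7.13 in TNC + TLR4i arrays. TNC + vehicle arrays were well above the others, with no overlap between groups. The log2 difference from untreated was 1.73 ± 0.15, the 100th highest of all genes, and 1.91 without TNC + vehicle replicate 1, the lowest array of that group.

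Lair1 encodes an ITIM receptor for collagens and C1q. Its brightest probe set read 8.87, 9.06 and 8.92 in untreated, 9.22, 9.24 and 9.14 in TNC + vehicle and 8.78, 9.04 and 9.09 in TNC + TLR4i arrays. TNC + vehicle was the highest group by a small margin, with a log2 difference of 0.25 ± 0.07 from untreated, and the other probe sets of Lair1 gave 0.44 and 0.30. All probe sets of Lair1 were thus higher with TNC + vehicle, each by less than 1.5-fold.

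Counted together, 3 of the 8 members passed the call rule (limma adjusted p under 0.05 and at least 1.5-fold) as lower with TNC + vehicle, namely Cd300a, Cd300lb and Cd200r1, where 4.05% of all genes did. Pilra was the 1 member past it as higher, where 3.74% of all genes were. Groups did not overlap for 7 of the 8, the exception being Cd300lf, against 42.3% of all genes. The median log2 difference of the members was -0.32 and that of all genes 0.01. Nothing is read from these counts, since the choice of members used the same values. Without TNC + vehicle replicate 1, the log2 differences were -1.76 for Cd300a, -0.96 for Cd300lb, -0.45 for Cd300ld, -0.14 for Cd300lf, -0.21 for Sirpa and 0.24 for Lair1.

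The second comparison asked what the TLR4 inhibitor did in cells that received TNC. It shares the TNC + vehicle arrays with the first, so opposite signs in these comparisons are partly built in. Cd300a was higher with TNC + TLR4i than with TNC + vehicle by a log2 difference of 2.10 ± 0.07, or 4.28-fold, the 5th highest of all genes. Cd300lb was higher by 1.12 ± 0.08 and Cd200r1 by 0.61 ± 0.09. The dimmer probe sets of Cd300a and Cd200r1 were higher by 0.57 ± 0.11 and 0.32 ± 0.10, each below 1.5-fold. Pilra was lower, with a log2 difference of -2.01 ± 0.14, or 4.03-fold.

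Among the smaller differences, Cd300ld was higher with TNC + TLR4i by 0.38 ± 0.08 on the log2 scale and Sirpa by 0.19 ± 0.07 in its brightest probe set. The other probe sets of Sirpa differed by -0.04 and -0.02, with overlapping arrays. Lair1 was lower, with -0.23 ± 0.09 in its brightest probe set and -0.32 and -0.37 in the others. The log2 difference of Cd300lf was 0.05 ± 0.08, with overlapping arrays. The call rule was passed by 3 members as higher, the background being 4.25% of all genes, and by 1 as lower, the background being 4.05%. Groups did not overlap for 7 of 8 members, against 42.2% of all genes. Without TNC + vehicle replicate 1 the log2 differences were 2.09 for Cd300a, 1.17 for Cd300lb, 0.71 for Cd200r1, -2.19 for Pilra, 0.37 for Cd300ld, 0.10 for Cd300lf, 0.22 for Sirpa and -0.22 for Lair1, and without replicate 2 that of Cd200r1 was 0.54, below 1.5-fold.

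**Figure D2:**
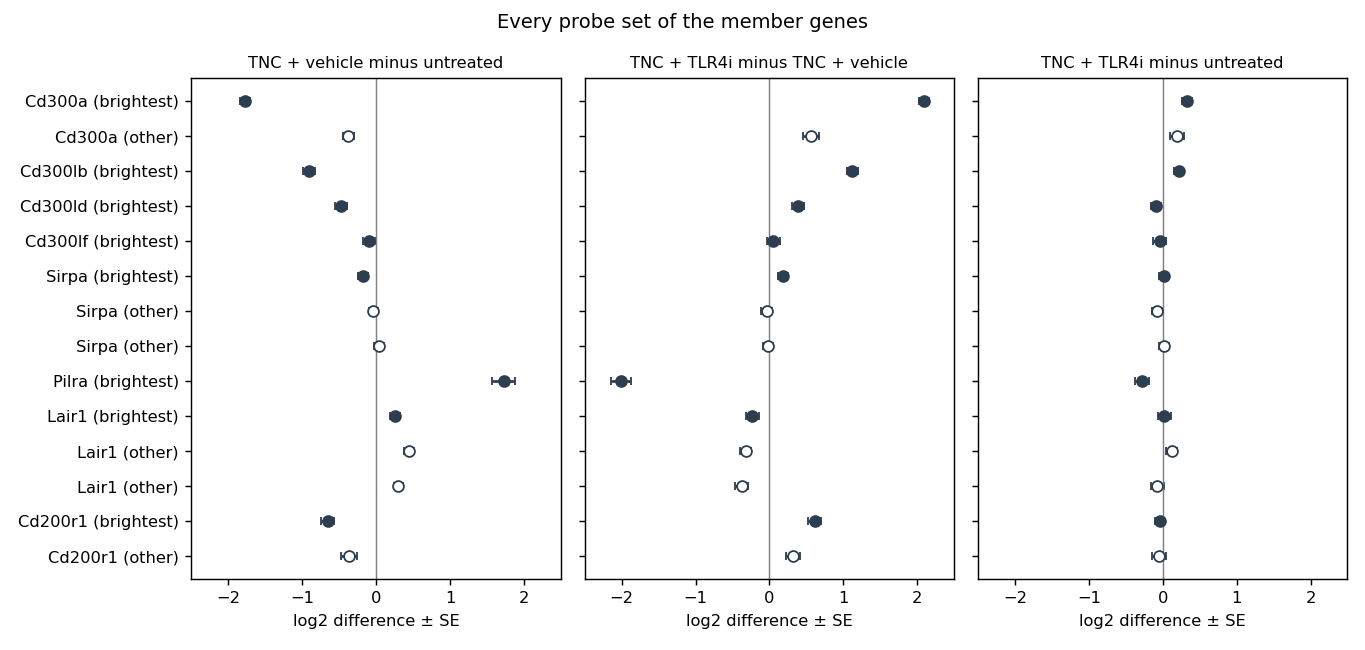
Log2 difference with its SE (horizontal bars) for each of the 14 probe sets of the measured members in the 3 comparisons, filled for the brightest probe set of a gene and open for its others. Cd300a lies at -1.77 and 2.10 in the first and second panels and its dimmer probe set at -0.38 and 0.57, Pilra lies at 1.73 and -2.01, and all points of the third panel lie between -0.28 and 0.33.

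The third comparison set TNC + TLR4i against untreated cells. Of the 8 members, 0 passed the call rule, where 0.0605% of all genes passed as higher and 0.198% as lower. Groups still did not overlap for 4 members, against 15.2% of all genes. In its brightest probe set, Cd300a was above its untreated signals in all 3 TNC + TLR4i arrays. The log2 difference was 0.33 ± 0.06, the 82nd highest of all genes. The dimmer probe set of Cd300a differed by 0.19 ± 0.10, and there the groups overlapped. Cd300lb was above its untreated signals in all 3 arrays too, with 0.21 ± 0.06. Pilra was below its untreated signals, with -0.28 ± 0.10, and Cd300ld too, with -0.09 ± 0.07, although its lowest untreated and highest TNC + TLR4i arrays both read 9.08. For Cd200r1, Lair1, Sirpa and Cd300lf the groups overlapped, and the log2 differences of their brightest probe sets lay between -0.04 and 0.02. Their other probe sets overlapped too, with 0.12 and -0.07 for Lair1, -0.08 and 0.02 for Sirpa and -0.05 for Cd200r1.

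The Cd300 genes lie in 1 run of chromosome 11 with 11 family members, of which 5 had a probe set of their own. In the RefSeq order the differences were not even along the run. Cd300c2, an activating member outside the chosen genes, had signals of 12.06, 12.06 and 11.99 in untreated, 11.28, 10.90 and 10.87 in TNC + vehicle and 12.07, 11.89 and 11.95 in TNC + TLR4i arrays. It fell with TNC + vehicle by 1.02 ± 0.10 on the log2 scale (limma adjusted p = 1.5e-05) and was higher with TNC + TLR4i by 0.95 ± 0.10 (limma adjusted p = 2.53e-05). These differences of Cd300c2 were -1.15 and 1.09 without TNC + vehicle replicate 1. Ordered by how far TNC + vehicle lay below untreated, Cd300a stood first, followed by Cd300c2, Cd300lb, Cd300ld and Cd300lf. Cd300lf, at the far end of the run, had an untreated mean of 6.94, near the array medians, so a fall of this gene could be hidden. Cd300c2 and Cd300lb were close enough in this order that their errors overlap. Several family members are near-identical copies, and the files do not give probe sequences, so signal from a neighboring copy on the probe sets of Cd300ld and Cd300c2 was not tested.

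The genes around the run were looked at after their values were seen. Gprc5c, an orphan G protein-coupled receptor next to Cd300a, fell with TNC + vehicle from a mean log2 signal of 8.62 to 6.75, a difference of -1.87 ± 0.07 (limma adjusted p = 1.61e-08), and stood at 8.45 with TNC + TLR4i. On the other side, Slc9a3r1, a scaffold protein gene next to Cd300lf, had a log2 difference of -0.53 ± 0.07 (limma adjusted p = 0.000156), below 1.5-fold. Rab37, a small GTPase gene between Cd300e and Cd300lf, had a difference of -0.03 ± 0.08 (limma adjusted p = 0.867). Its mean signals of 6.57 in untreated and 6.55 in TNC + vehicle arrays lay below the array medians, so a fall could not be seen. The other measured flanking genes, Dnaic2, Btbd17, Nat9, Tmem104 and Grin2c, differed by -0.22 to 0.18. Of these, Tmem104 had a limma adjusted p of 0.0439, below 1.5-fold. The log2 difference of Gprc5c was -1.80 and that of Slc9a3r1 -0.55 without TNC + vehicle replicate 1.

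**Figure D3:**
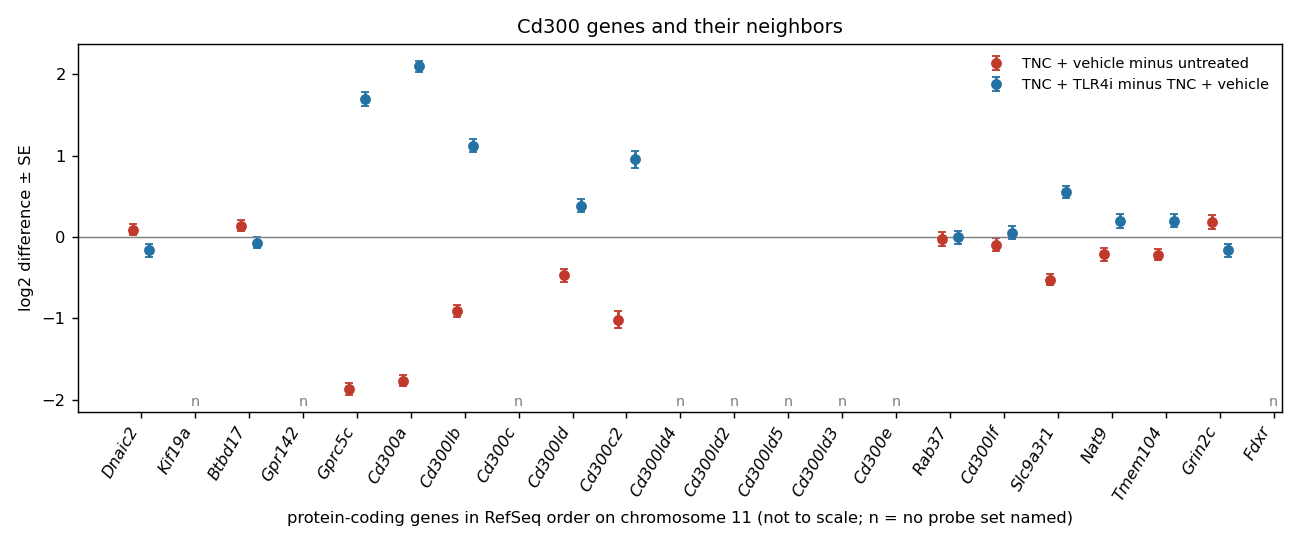
Log2 difference with its SE for protein-coding genes in their RefSeq order along chromosome 11 (evenly spaced, not to scale), in TNC + vehicle minus untreated (red) and TNC + TLR4i minus TNC + vehicle (blue), with n where no probe set is named to the gene alone. Both comparisons share the TNC + vehicle arrays. Gprc5c and Cd300a lie lowest in red at -1.87 and -1.77, and Rab37 and Cd300lf, both dim, lie near 0.

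Other genes of the pathway were taken from 7 lists of 90 genes, of which 61 were measured. The lists, Cd300c2 among them, were also chosen with earlier results of these data known. Their adjusted p-values and counts are therefore no independent test. Rose and fell here mean past the call rule, which asks for the adjusted p and for 1.5-fold. With TNC + vehicle, 6 of the 61 rose and 5 fell, and 50 did not pass the rule, with a median log2 difference of -0.02. Of all genes, 3.74% were called higher and 4.05% lower in this comparison. Of the 50, 14 had an adjusted p under 0.05 but differed by less than 1.5-fold, 6 as higher and 8 as lower. Without TNC + vehicle replicate 1 the counts past the rule were 6 and 6. With TNC + TLR4i against TNC + vehicle, 5 were higher, 7 were lower and 49 did not pass, of which 13 failed the fold alone. Of all genes, 4.25% were called higher and 4.05% lower there. The shares of each comparison are the background for every list below. The count of higher related genes in the second comparison was 3 without TNC + vehicle replicate 3 and 6 without replicate 1. The uncalled genes of highest signal in each list had log2 differences with TNC + vehicle of -0.08 for Cd300lg, 0.17 for Cd72, 0.02 for Cd200r4, -0.02 for C1qa, 0.28 for Ptpn6, 0.01 for Btk and -0.03 for Tyrobp. Ptpn6, which encodes SHP-1, had a limma adjusted p of 0.0265, and for the other 6 it was 0.182 or more.

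Among 19 other inhibitory receptors, 2 rose and 2 fell with TNC + vehicle, with a median log2 difference of -0.02. Vsir, which encodes the checkpoint receptor VISTA, fell by 1.32 ± 0.08 on the log2 scale (limma adjusted p = 2.57e-07), from signals of 12.09 to 12.25 in untreated to 10.73 to 10.97 in TNC + vehicle arrays. Ceacam1, a homophilic ITIM receptor, fell by 0.71 ± 0.10 (limma adjusted p = 0.000211). Klra2, a Ly49 lectin, rose from 6.20, 6.25 and 6.21 to 7.26, 7.82 and 8.06, a log2 difference of 1.49 ± 0.15 (limma adjusted p = 2.1e-05). Its untreated signals lay below the array medians, where RMA compresses differences, so the size of the rise may be understated. Fcgr2b, the inhibitory Fc receptor for IgG, rose by 0.73 ± 0.08 (limma adjusted p = 2.44e-05).

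With TNC + TLR4i against TNC + vehicle, 2 of these 19 receptors were higher and 3 lower. Vsir was higher by 1.22 ± 0.08 (limma adjusted p = 3.55e-07), and so was Havcr2, the transcript of TIM-3, with signals below the array medians in every group, by 0.59 ± 0.07 (limma adjusted p = 2.78e-05). Havcr2 was under 1.5-fold without TNC + vehicle replicate 2 or replicate 3, with 0.58 in each case. Klra2 was lower, with -1.47 ± 0.16 (limma adjusted p = 2.15e-05), as were Fcgr2b, with -0.86 ± 0.07 (limma adjusted p = 3.1e-06), and Milr1, the mast cell and myeloid ITIM receptor Allergin-1, with -0.69 ± 0.08 (limma adjusted p = 2.74e-05). Ceacam1 had a difference of 0.49 (limma adjusted p = 0.0024), below 1.5-fold.

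Of 4 measured activating partners, Pilrb1, which encodes PILRβ, rose with TNC + vehicle as its inhibitory counterpart Pilra was also higher. Pilrb1 signals were 8.99, 8.81 and 8.91 in untreated, 9.21, 9.73 and 9.64 in TNC + vehicle and 8.52, 8.57 and 8.34 in TNC + TLR4i arrays. The rise was 0.62 ± 0.12 on the log2 scale (limma adjusted p = 0.00218), and it was under 1.5-fold without TNC + vehicle replicate 2 (0.52), TNC + vehicle replicate 3 (0.57) or untreated replicate 2 (0.58). Pilrb1 was lower with TNC + TLR4i than with TNC + vehicle, with a difference of -1.05 ± 0.12 (limma adjusted p = 3.93e-05), and its TNC + TLR4i arrays were also below the untreated arrays, with -0.43 ± 0.08 (limma adjusted p = 0.0288), under 1.5-fold. Pilra and Pilrb1 are closely related in sequence, and shared signal between their probe sets was not tested.

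Of 16 ligand genes, 0 rose and 1 fell past the limma call rule with TNC + vehicle, with a median log2 difference of -0.03. Another 3 had an adjusted p under 0.05 below 1.5-fold, 1 as higher (Cd47) and 2 as lower (Col3a1 with -0.47 and Pianp with -0.46). The gene that fell was Colec12, a scavenger collectin with a collagen-like domain, with -0.82 ± 0.20 (limma adjusted p = 0.0115), and it was higher with TNC + TLR4i by 0.63 ± 0.16 (limma adjusted p = 0.0112). Its arrays varied widely, with means of 11.51 ± 0.42 (SD, n = 3) in untreated and 10.70 ± 0.37 in TNC + vehicle, and its call was lost without untreated replicate 1 in the first comparison and without TNC + TLR4i replicate 3 (0.51) or TNC + vehicle replicate 3 (0.43) in the second. Fibroblast markers were present in all groups, their mean lying between 9.62 and 9.99, and their part in the Colec12 signal was not tested.

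Named after their values were seen, the ligands of Sirpa and Cd200r1 were as follows. Cd47 was higher with TNC + vehicle by 0.37 ± 0.07 (limma adjusted p = 0.0019) and lower with TNC + TLR4i than with TNC + vehicle, with a difference of -0.46 ± 0.07 (limma adjusted p = 0.00037), both below 1.5-fold. Cd200 was at 7.68 in TNC + vehicle replicate 1 and at 6.68 and 6.74 in the other arrays of that group, beside the high endothelial markers of the first, and it had no called difference (limma adjusted p = 0.522 against untreated).

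Downstream of the ITIM, 0 of 8 inhibitory effectors rose and 1 fell past the limma call rule with TNC + vehicle. Below 1.5-fold but with a limma adjusted p under 0.05 were Ptpn11 (0.26) and Ptpn6 (0.28) as higher and Csk (-0.37) and Dok3 (-0.34) as lower. Inpp5d, which encodes SHIP-1, read 10.66, 10.68 and 10.71 in untreated, 9.91, 9.93 and 9.90 in TNC + vehicle and 10.67, 10.54 and 10.61 in TNC + TLR4i arrays. The fall was 0.77 ± 0.06 on the log2 scale (limma adjusted p = 2.75e-06) and the difference of TNC + TLR4i from TNC + vehicle was 0.69 ± 0.07 (limma adjusted p = 8.91e-06).

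Of 5 measured kinases that phosphorylate or read these motifs, 3 rose with TNC + vehicle and were lower again with TNC + TLR4i. Fgr, a Src family kinase of myeloid cells, read 7.61, 7.56 and 7.60 in untreated, 8.97, 8.90 and 9.04 in TNC + vehicle and 7.59, 7.39 and 7.27 in TNC + TLR4i arrays. Its rise was 1.38 ± 0.07 on the log2 scale (limma adjusted p = 5.12e-08) and its difference between TNC + TLR4i and TNC + vehicle was -1.55 ± 0.09 (limma adjusted p = 6.74e-08). Syk rose by 0.85 ± 0.07 (limma adjusted p = 3.42e-06) and Src by 0.78 ± 0.08 (limma adjusted p = 3.07e-05). Between TNC + TLR4i and TNC + vehicle, Syk differed by -0.89 ± 0.07 (limma adjusted p = 1.11e-06) and Src by -0.67 ± 0.08 (limma adjusted p = 7.01e-05).

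Among 7 adaptors of the activating receptors, 0 passed the limma call rule in either direction with TNC + vehicle. Vav1 (0.23, limma adjusted p = 0.0344) and Plcg2 (-0.24, limma adjusted p = 0.0181) failed the fold alone, and an unadjusted p under 0.05 was reached by 2 as higher and 1 as lower. Tyrobp, which encodes DAP12, the adaptor of Cd300lb, lay between 13.65 and 13.73 in all 9 arrays. For TNC + TLR4i against untreated, 0 of the 61 related genes passed the limma call rule in either direction. Pilrb1 and Dok2 (-0.37, limma adjusted p = 0.0333) were lower below 1.5-fold, and an unadjusted p under 0.05 was reached by 2 as higher and 8 as lower.

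Without TNC + vehicle replicate 1, the log2 differences of TNC + vehicle from untreated were -1.26 for Vsir, -0.81 for Ceacam1, 1.72 for Klra2, 0.72 for Fcgr2b, 0.78 for Pilrb1 and -0.97 for Colec12. For the signaling genes they were -0.77 for Inpp5d, 1.38 for Fgr, 0.88 for Syk and 0.83 for Src. In TNC + TLR4i against TNC + vehicle the values without that array were 1.16 for Vsir, 0.62 for Havcr2, -1.70 for Klra2 and -0.86 for Fcgr2b. They were -0.73 for Milr1, -1.21 for Pilrb1 and 0.79 for Colec12. Among the signaling genes, Inpp5d had 0.695, Fgr -1.55, Syk -0.91 and Src -0.72 in that comparison. Each difference listed here still passed the call rule.

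**Figure D4:**
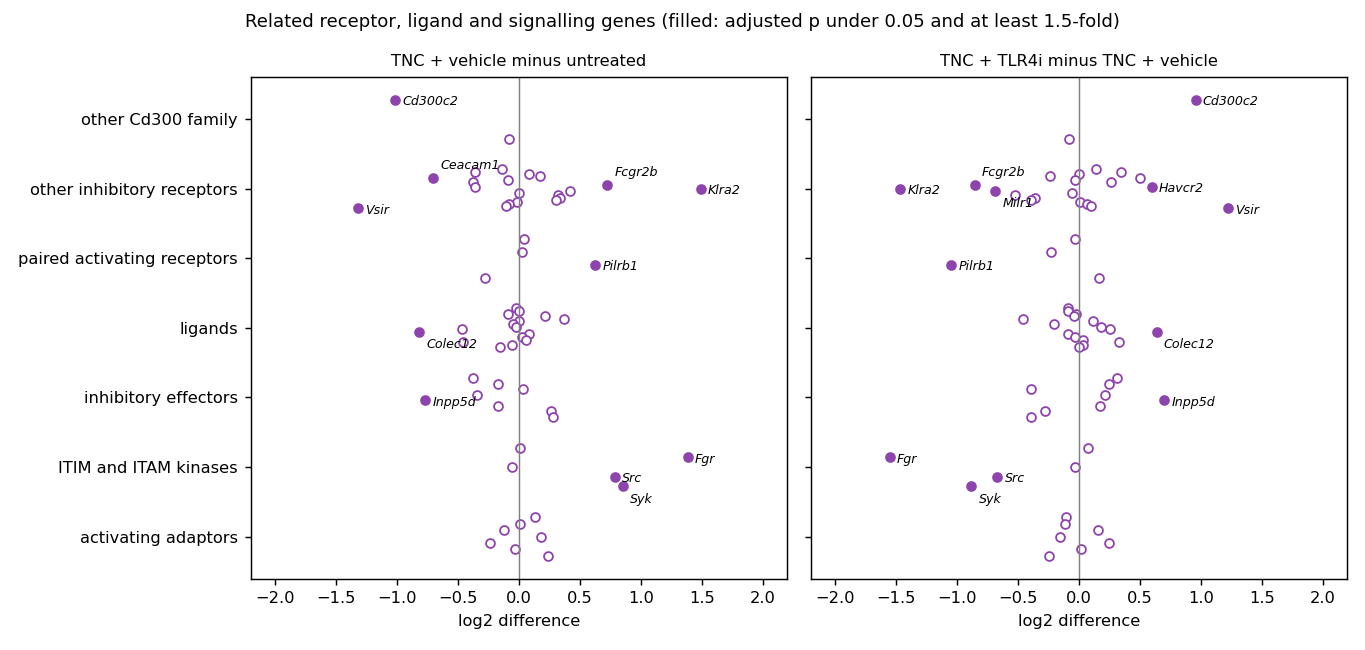
Log2 difference of each of the 61 measured related genes by list, in TNC + vehicle minus untreated (left) and TNC + TLR4i minus TNC + vehicle (right), filled and named where the limma adjusted p was under 0.05 and the change at least 1.5-fold. The panels share the TNC + vehicle arrays; 6 genes are called higher and 5 lower on the left, with Vsir at -1.32 and Klra2 at 1.49, and 5 higher and 7 lower on the right.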

How the data were processed

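Total RNA of mouse BMDMs was hybridized to 9 Affymetrix mouse arrays (untreated, TNC + vehicle and TNC + TLR4i, 3 each). The authors applied RMA in Chipster and the deposited log2 values ran from 5.44 to 14.69. RMA quantile normalization would hide a change of total RNA, and its floor compresses dim genes. Of 45101 probe sets, 64 controls were left out; the platform table named 34945 to 1 gene, 932 to several and 9160 to none, and only the first were named.

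Each comparison was a two-sided limma test (lmFit and eBayes, limma 3.58.1, R 4.3.3) on its own 6 arrays, with Benjamini-Hochberg adjustment over 45037 probe sets. A call needed an adjusted p under 0.05 and at least 1.5-fold. The fit was tested on simulated data. The members and all lists were chosen with earlier results of these data known. Named were all members, up to 4 called genes per list by size, its brightest uncalled gene and the 2 genes closest in profile to each member. Any other gene was named after its values were seen. Among these are the related genes below 1.5-fold, which were not named for every list. The differences of genes beside the Cd300 run without TNC + vehicle replicate 1 were added after seeing the data. Alternatives were other normalizations, fits, filters, folds, probe sets averaged per gene and each array left out. Protein sequences were not used here.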

Additional observations from a re-analysis of the deposited data

How the results depend on the processing

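No called direction reversed under the alternatives; Cd300lf, whose groups overlapped, changed sign in the second comparison without TNC + TLR4i replicate 1 (-0.02). Of 216 member values, 207 moved by less than the spread between replicates (the larger group SD) and 9 by more. Leaving out 1 of 3 arrays cannot shift a group mean by its SD. The values with an array left out thus fell among the 207 by design. Of 344 values of called related genes, 313 kept their call and 31 lost it. Without a minimum fold, TNC + vehicle gave 12 related genes higher and 13 lower, TNC + TLR4i against TNC + vehicle 11 and 14, and TNC + TLR4i against untreated 2 lower. At 2-fold the first gave 2 and 2, and the second 1 and 3. With each array left out in turn, the first comparison gave 5 to 6 higher and 4 to 6 lower, the second 3 to 6 higher (3 without TNC + vehicle replicate 3) and 7 to 8 lower, and the third 0. With the replicate block the calls stayed at 6 and 5, 5 and 7, and 0 and 0. With group means removed, same-numbered arrays correlated at -0.10 to 0.14 over all probe sets. These values show no clear pairing, but many probe sets are dim, so they cannot tell whether same-numbered samples were paired.

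With probe sets averaged per gene, 3 related genes were called lower with TNC + vehicle, and the calls of Ceacam1 (-0.47), Inpp5d (-0.55 and 0.52) and Syk (0.52 and -0.51) ended. Cd300a was then at -1.07 and 1.33 and Sirpa at -0.06 and 0.04, and Cd200r1 at -0.51 and 0.47, below 1.5-fold in both. Of all genes, this setting called 578 higher and 483 lower (main 680 and 736), 498 and 628 (main 774 and 736), and 9 and 23 (main 11 and 36). Cyclic loess called 736 and 638, 634 and 825, and 11 and 40. It put Sirpa at -0.08 and 0.08 and Cd200r1 at -0.57 and 0.51, below 1.5-fold. Colec12 lost its calls with the trend and robust settings, and its second with cyclic loess (0.53). Background correction and detection calls could not be varied, since scanner files were not used here. The cause of these changes was not tested.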

Other observations

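For each member, the genes whose profile over the 9 arrays was closest were found by the root mean square difference of mean-centered log2 signals, among 7014 genes with a mean of at least 8. The 9 arrays fall into 3 groups, so likeness here is mostly likeness of the group means. Closest to Cd300a were Reps2 (0.104), an endocytosis-associated gene, and Kctd12b (0.144), with log2 differences of -1.78 and -1.74 in TNC + vehicle against untreated. Closest to Cd300lb were Cdt1 (0.0678), a DNA replication licensing factor, and Plekhm1 (0.0779), and closest to Cd300ld were Calhm2 (0.0427) and Wdfy3 (0.0474). Closest to Cd200r1 were Lta4h (0.0406), which makes leukotriene B4, and Tpra1 (0.0536).

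Closest to Pilra were Kdr (0.113), a VEGF receptor, and Smpdl3b (0.121), with log2 differences of 1.63 and 1.72. Kdr was among the endothelial markers, but in TNC + vehicle arrays its signals of 9.58 and 9.59 in replicates 2 and 3 were above that of replicate 1, where the mean of those markers was highest. For the members with small differences, the closest genes were Top2a (0.0468) and Cux1 (0.0528) for Cd300lf, Atp7a (0.0314) and Rpl11 (0.0343) for Sirpa, and Ythdc1 (0.0446) and Thtpa (0.0523) for Lair1.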
